A study of Mus musculus with 6 samples.

Results

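The distal end of mouse chromosome 10 was described as a block of neighbouring genes in ErbB2-expressing mammary tumour cells with and without a hairpin against CdGAP. The members were the genes listed on chromosome 10 with a first exon start at or beyond position 62900000 and a mean of at least 10 CPM (counts scaled to the library total) over the 6 libraries. This rule gave 311 genes of the 41214 in the annotation, and 311 of the 1005 distal genes at any level. The remaining chromosome 10 genes at the same level, 149 with a start below that position, served as the reference. The cells were explants of mammary tumours formed by NMuMG, a line of mouse mammary gland epithelium, that express the receptor tyrosine kinase ErbB2. The 3 shCTL libraries carried a control hairpin and are labelled WT. The 3 shCdGAP libraries carried a hairpin against CdGAP and are labelled CdGAP KD, so both groups share the tumour origin and ErbB2. CdGAP, the product of Arhgap31, is a GTPase-activating protein that switches Rac1 and Cdc42 to their inactive state. The labels do not say whether replicates are separate cultures, whether either line is a clone or a pool, or how many hairpins were used. Any p-value therefore refers to the spread between these libraries alone, which could be technical.

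Genes that lie side by side on a chromosome mostly do unrelated work, yet they sit on one DNA molecule and share stretches of chromatin. DNA copy number and chromatin were not analysed here. The distal part of mouse chromosome 10 carries well-known growth genes, among them Mdm2, which encodes the ubiquitin ligase that degrades p53, the cyclin-dependent kinase gene Cdk4 and the chromatin protein gene Hmga2. In human sarcomas the counterparts of these 3 genes are often amplified together.

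The members were chosen because their shCdGAP to shCTL values were shifted downward, so the shift itself is given as a description and carries no test. The promoters on either side of the boundary belong to the genes nearest the cut that the rule set. Those of the 3 members closest to the block's median were picked on shCdGAP to shCTL values alone. Their start sites need not be typical of the block. Each run is the 250 bases before the RefSeq transcription start (GRCm38.p6), 5′ to 3′, with capitals marking a motif match on either strand. The motifs were the TATA box letters TATAAA, then the box CCAAT that NF-Y binds, and finally the E-box CACGTG.
The last gene outside, Ccar1 (chr10:62792369-62792618, minus strand): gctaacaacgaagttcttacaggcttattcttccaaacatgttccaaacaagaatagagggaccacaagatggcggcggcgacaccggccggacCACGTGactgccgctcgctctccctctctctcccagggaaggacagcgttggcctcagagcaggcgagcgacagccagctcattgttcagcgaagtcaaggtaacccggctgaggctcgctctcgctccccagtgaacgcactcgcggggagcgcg
The first gene inside, Slc25a16 (chr10:62920383-62920632, plus strand): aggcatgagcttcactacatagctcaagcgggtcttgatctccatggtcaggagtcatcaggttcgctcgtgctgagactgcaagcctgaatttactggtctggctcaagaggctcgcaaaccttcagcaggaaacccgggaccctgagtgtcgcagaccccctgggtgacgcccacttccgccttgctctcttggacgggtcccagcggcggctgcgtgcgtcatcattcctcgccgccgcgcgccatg
A typical member, Tsfm (chr10:127030815-127031064, minus strand): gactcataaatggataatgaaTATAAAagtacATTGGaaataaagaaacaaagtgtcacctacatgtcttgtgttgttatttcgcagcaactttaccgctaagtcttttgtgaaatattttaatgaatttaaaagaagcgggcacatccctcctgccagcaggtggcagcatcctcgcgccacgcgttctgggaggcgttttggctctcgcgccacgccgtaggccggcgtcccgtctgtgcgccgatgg
A typical member, Col18a1 (chr10:77166531-77166780, minus strand): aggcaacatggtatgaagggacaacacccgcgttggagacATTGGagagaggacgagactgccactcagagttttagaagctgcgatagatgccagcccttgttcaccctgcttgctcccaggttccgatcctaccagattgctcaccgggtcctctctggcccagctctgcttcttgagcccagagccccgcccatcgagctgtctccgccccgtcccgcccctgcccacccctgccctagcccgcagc
A typical member, Dnajc14 (chr10:128805426-128805675, plus strand): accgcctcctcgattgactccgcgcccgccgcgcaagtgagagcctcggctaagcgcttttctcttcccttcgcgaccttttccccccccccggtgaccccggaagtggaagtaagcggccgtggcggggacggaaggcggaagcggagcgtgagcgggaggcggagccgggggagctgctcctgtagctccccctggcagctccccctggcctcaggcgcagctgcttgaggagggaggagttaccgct
The Tsfm promoter held 1 TATAAA and 1 CCAAT match, Col18a1 1 CCAAT, Ccar1 1 CACGTG, and Slc25a16 and Dnajc14 had 0 matches to these letters. RefSeq promoters were found for 271 of the 311 members and 123 of the 149 proximal genes. CCAAT stood in 36.9% of the distal, 32.5% of the proximal and 33.8% of all 32851 promoters in the table. TATAAA stood in 6.64%, 5.69% and 12.4%, and CACGTG in 8.49%, 14.6% and 6.02%. The distal and proximal sets hold 1 promoter per gene of at least 10 CPM. The whole set has no level limit and can hold several per gene (27025 genes), so its shares are not a like-for-like reference. Each motif was counted on its own, so a CCAAT and a TATAAA match can share a letter, and a match is not a bound site.

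Over the series as a whole, library totals ran from 19176540 to 26824249 counts, so a count of 0 allows up to 0.112 to 0.156 CPM (3 counts). Arhgap31, the targeted gene on chromosome 16, was at 13.2, 14.4 and 15.1 CPM in shCTL and 1.70, 9.16 and 8.21 CPM in shCdGAP. Its groups did not overlap, and it did not pass the edgeR quasi-likelihood test (log2 fold change −1.16 ± 0.55, SE, adjusted p = 0.19). Without shCdGAP replicate 1, which had the lowest level, it did pass (−0.71, edgeR adjusted p = 0.00407). That library stood apart from its replicates in many genes, and for the genes described each call that appeared without it is given. Of 6 epithelial markers, summed at 5903 to 8412 CPM in shCTL and 7172 to 10973 CPM in shCdGAP, 1 was called higher (Cdh1) and 1 lower (Epcam). Epcam was low in shCTL too (1.65, 1.06 and 1.17 CPM) and had 0 counts in shCdGAP, and Esrp1 had 1 count in all 6 libraries. The 6 fibroblast markers summed to 5.31 to 6.29 CPM in shCTL and 3.17 to 6.88 CPM in shCdGAP, with 0 called and with Thy1 at 0 counts in both groups, Col3a1 at 0 in shCTL and Col1a2 at 0 in shCdGAP. The 4 endothelial markers summed to 1.05 to 1.24 CPM in shCTL and 0 to 0.159 CPM in shCdGAP, with 1 called lower (Tek) and with Kdr and Tek at 0 counts in shCdGAP. The 6 leukocyte markers summed to 18.1 to 23.2 CPM in shCTL and 6.22 to 18.1 CPM in shCdGAP, with 1 called higher (Itgam), 0 called lower and Adgre1 at 0 counts in both groups. Itgam was low throughout, at 0.31, 0.25 and 0.08 CPM in shCTL and 1.16, 1.63 and 1.43 CPM in shCdGAP. The part of these markers in the results on chromosome 10 was not tested.

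Most distal genes had somewhat less RNA in shCdGAP, while proximal genes were spread evenly around no difference. The median log2 fold change was −0.29 over the 311 members, a level 18.4% lower, and 0.01 over the 149 proximal genes. It was 0.01 over all 13483 genes tested and 0.03 over the 8865 genes of at least 10 CPM on other chromosomes. The middle 50% of members lay between −0.56 and −0.06, and that of proximal genes between −0.26 and 0.26. The log2 fold change was below 0 in 250 of 311 members (80.4%) and in 71 of 149 proximal genes (47.7%). In bulk RNA, fewer cells that express a gene and less RNA per cell cannot be told apart.

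The displacement was small for a single gene and wide in reach. A total of 239 of 311 members lay within 0.5 log2 units of the median, 21 members were at least 2-fold lower and 12 at least 2-fold higher. Within 0.5 of their own median lay 109 of 149 proximal genes and 6635 of 8865 genes of at least 10 CPM on other chromosomes. Of those 8865 genes, 313 were at least 2-fold lower and 370 at least 2-fold higher. At an edgeR adjusted p under 0.05 (Benjamini-Hochberg, over all genes tested), 69 members were called lower (22.2%) and 12 higher (3.86%). The same test called 11.4% of all tested genes lower and 10.4% higher. Of genes of at least 10 CPM on other chromosomes it called 8.32% lower and 10.6% higher. Since the members were chosen on this contrast, nothing is read from the difference between these shares. All 3 shCdGAP libraries lay below all 3 shCTL libraries in 154 members (49.5%, against 22.4% of all tested genes) and above them in 22 (7.07%, against 21.7%). Proximal genes had 11 called lower and 20 called higher of 149. The 230 members that were not called had a median of −0.23.

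Counts of called members depended on which libraries entered, while the median moved little. Without shCdGAP replicate 1, 151 members were called lower and 17 higher, and the same fit called 21.9% of all tested genes lower and 19.9% higher. Without shCdGAP replicate 2 the counts were 38 and 6, with 6.94% and 5.95% of all tested genes. Without shCTL replicate 1 they were 44 and 7 (7.65% and 5.74%), without shCTL replicate 2 they were 34 and 6 (6.28% and 3.95%), and without shCTL replicate 3 they were 35 and 6 (6.55% and 4.13%). Without shCdGAP replicate 3 they were 59 and 14 (9.19% and 8.96%). The counts over the whole genome moved in the same direction as those over the block, except for higher calls without shCdGAP replicate 3. There the block's count rose from 12 to 14 while the share of all tested genes fell from 10.4% to 8.96%. The median over the members stayed between −0.32 and −0.29 with any 1 library left out. Calls of 32 of the 69 lower and 6 of the 12 higher members were made in all 6 such fits.

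**Figure D1:**
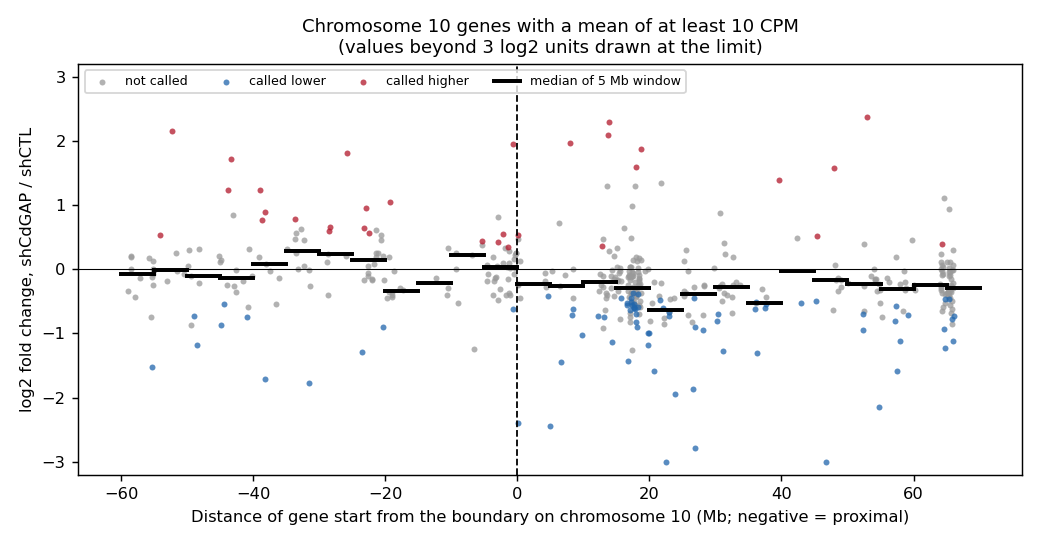
Each point is a chromosome 10 gene, with its distance from the boundary in Mb on the x axis and its log2 fold change (shCdGAP over shCTL) on the y axis; the colour gives the edgeR call and black bars give medians of 5 Mb windows. Window medians right of the dashed boundary all lie below 0 (−0.64 to −0.02), and those left of it lie on both sides (−0.34 to 0.28); Nav3 (−4.54) and Btbd11 (−3.31) are drawn at the lower limit.

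The displacement was present in each shCdGAP library. For every gene the log2 CPM of a library (0.5 CPM added) was set against the gene's mean in shCTL, and the median was taken over genes. Over the distal members this median was −0.31, −0.30 and −0.29 in shCdGAP replicates 1 to 3 (−0.301 ± 0.0139, SD, n = 3). In shCTL replicates 1 to 3 it was 0.02, −0.02 and 0.00, values that are near 0 by construction. Over proximal genes it was 0.02, 0.01 and 0.04 in the 3 shCdGAP libraries. The distal minus proximal difference was −0.34, −0.31 and −0.33 in shCdGAP (−0.325 ± 0.0152, SD, n = 3), and a scaling of a whole library cancels in this difference, apart from the 0.5 CPM added. The 3 values lie close together although shCdGAP replicate 1 had far more scatter among members. Its middle 50% of members ran from −0.74 to 0.16, against −0.56 to −0.11 in replicate 2 and −0.58 to −0.07 in replicate 3. Members below their shCTL mean numbered 212 (68.2%), 256 (82.3%) and 247 (79.4%) in shCdGAP replicates 1 to 3.

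The share of all counts that came from the block was also lower. Distal members took 4.95%, 4.70% and 4.78% of all counts in shCTL (4.81% ± 0.128, SD, n = 3) and 4.03%, 3.82% and 3.84% in shCdGAP (3.90% ± 0.115). These groups did not overlap. Proximal genes took 1.30%, 1.32% and 1.32% in shCTL and 1.39%, 1.35% and 1.35% in shCdGAP. Their groups did not overlap either, with slightly higher shares in shCdGAP. Counts from distal members were 3.66 ± 0.125 times those from proximal genes in shCTL and 2.85 ± 0.032 times in shCdGAP.

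**Figure D2:**
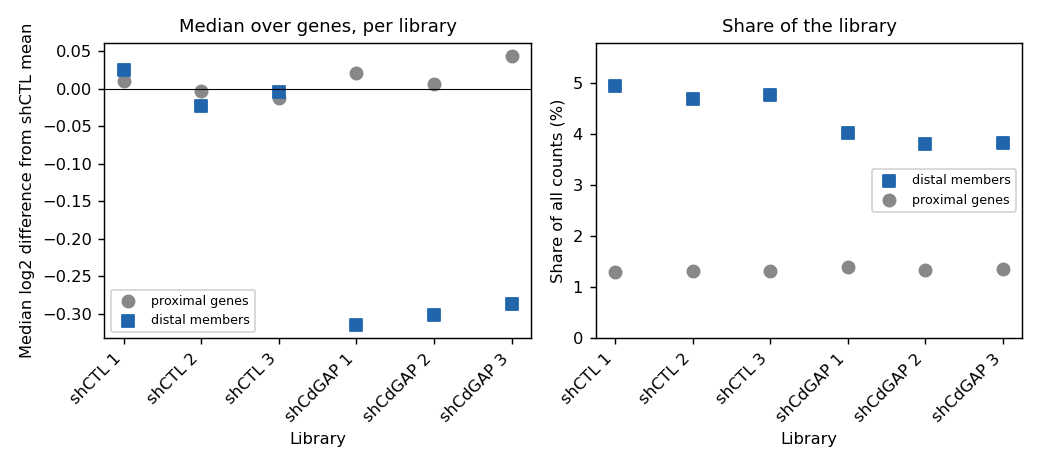
Left, the median log2 difference from the shCTL mean over distal members (squares) and proximal genes (circles) in each library; right, the percent of all counts in a library that fell on either set. The 3 shCdGAP squares sit between −0.31 and −0.29 while all circles stay within 0.05 of 0, and the distal share is 4.70% to 4.95% in shCTL and 3.82% to 4.03% in shCdGAP.

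Along the chromosome the lowered values ran from the boundary to the last member without a window of the opposite sign. In windows of 5 Mb counted from the boundary, all 14 distal medians were below 0, and 6 of 12 proximal ones were. Of 488 windows on other chromosomes 45.5% were below 0. Library medians of a window were lower in all 3 shCdGAP than in all 3 shCTL libraries in 12 of 14 distal and 4 of 12 proximal windows, against 23.4% of windows elsewhere. They were higher in 30.5% of the windows elsewhere. The lowest median stood at 82.9 to 87.9 Mb (−0.64, 18 genes), where 17 genes were below 0. In that window 7 genes were called lower (38.9%, against 22.2% of the block and 11.4% of all tested genes). It was picked as the lowest of 14 windows, so nothing is read from this share. Its median was −0.79, −0.61 and −0.35 in shCdGAP replicates 1 to 3. The next lowest was at 97.9 to 102.9 Mb (−0.53, 9 genes). Medians nearest 0 were at 102.9 to 107.9 Mb, which held 2 genes (−0.02), and at 107.9 to 112.9 Mb (−0.17, 11 genes). The fullest window, 77.9 to 82.9 Mb with 93 genes, had a median of −0.29, and the members outside it also had −0.29. The last window, which begins at 127.9 Mb, had −0.29 over 36 genes. Proximal chromosome 10 was not uniform. The window at 42.9 to 47.9 Mb (−0.34, 10 genes) was lower than all but 3 of the 14 distal ones. That at 47.9 to 52.9 Mb (−0.22, 4 genes) was higher than 11 of the 14, and those at 27.9 to 32.9 Mb (0.28, 12 genes) and 32.9 to 37.9 Mb (0.23, 7 genes) were higher.

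Values next to the boundary were mixed. The 10 genes just outside had a median log2 fold change of 0.09, with 3 below 0, and the 10 just inside had −0.21, with 7 below 0. Outside, Ccar1, a coactivator of apoptosis and transcription, was at 155, 202 and 204 CPM in shCTL and 146, 253 and 267 CPM in shCdGAP. The RNA helicase gene Ddx50 was at 64.4, 56.8 and 55.9 CPM in shCTL and 84.4, 60.3 and 65.3 CPM in shCdGAP, and its neighbour Ddx21 at 411, 411 and 423 CPM in shCTL and 209.6, 459.6 and 598 CPM in shCdGAP. The groups overlapped in all 3, with log2 fold changes of 0.25, 0.25 and 0.03, and none was called. Without shCdGAP replicate 1, Ccar1 (0.49, edgeR adjusted p = 0.0143) and Ddx21 (0.36, adjusted p = 0.0381) were called higher, and Ddx50 was not. Inside, the mitochondrial carrier gene Slc25a16 was at 24.3, 25.4 and 25.6 CPM in shCTL and 36.2, 35.8 and 36.7 CPM in shCdGAP, so the first member by position was higher in shCdGAP (0.53 ± 0.10, edgeR adjusted p = 0.0146). That call was lost without any shCTL library or without shCdGAP replicate 2 (edgeR adjusted p up to 0.083). The DNA repair nuclease gene Dna2 was at 22.8, 26.6 and 24.0 CPM in shCTL and 6.79, 27.0 and 28.8 CPM in shCdGAP, with only shCdGAP replicate 1 low. Rufy2 was at 41.2, 37.7 and 37.2 CPM in shCTL and 42.6, 30.4 and 25.2 CPM in shCdGAP, and without shCdGAP replicate 1 it was called lower (−0.47, edgeR adjusted p = 0.0132). With the boundary moved 5 Mb down, 5 Mb up or 10 Mb up the distal median was −0.28, −0.31 and −0.31.

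At the level limit of the rule, the 3 members lowest in mean CPM were Ppm1h, Pbld2 and Zfp938, with log2 fold changes of 0.46, −2.40 and −0.03. The 3 distal genes just under the limit, C2cd4c, Slc41a2 and Gm49322, had 0.42, −3.53 and −0.50. Of the 694 distal genes under 10 CPM, 372 had 0 counts in all 6 libraries and 118 were tested. The tested ones had a median of −0.29 with a wide middle 50% (−1.05 to 0.24). The 64 tested proximal genes under 10 CPM had a median of −0.18.

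The median was below 0 in every group when the members were divided by strand, by level and by exon length; of these, level was also part of the rule. By strand the medians were −0.28 for 147 plus-strand and −0.31 for 164 minus-strand members. By level they were −0.31, −0.35 and −0.27 for the 104 lowest, 103 middle and 104 highest members, and by summed exon length −0.32, −0.27 and −0.32 for groups of the same sizes from the shortest to the longest. The groups by level differed in spread, with an SD of 0.917 log2 units and 72.1% below 0 in the lowest, and an SD of 0.485 and 87.5% below 0 in the highest. GENCODE M21 lists 310 of the 311 members as protein-coding, and 1 was not matched there.

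The 3 typical members show what a shift of this size looks like in single genes. Tsfm, a mitochondrial translation elongation factor gene at 127011572 to 127030840, was at 43.3, 41.0 and 41.6 CPM in shCTL and 27.4, 36.3 and 39.0 CPM in shCdGAP. Col18a1, which encodes the basement membrane collagen that yields endostatin, was at 751, 682 and 699 CPM in shCTL and 598, 568 and 574 CPM in shCdGAP. Dnajc14, a chaperone cofactor gene, was at 110.5, 128 and 121 CPM in shCTL and 105, 97.1 and 92.7 CPM in shCdGAP. In all 3 the groups did not overlap, and none passed the edgeR test (adjusted p = 0.235, 0.0687 and 0.104). Lower values with no overlap were found in 49.5% of all members and 22.4% of all tested genes. Without shCdGAP replicate 1, Col18a1 (0.023) and Dnajc14 (0.0206) passed edgeR at these adjusted p-values. The 3 proximal genes nearest their own median, by contrast, had overlapping groups. The microtubule-severing enzyme gene Katna1 was at 45.7, 40.8 and 36.7 CPM in shCTL and 47.7, 37.6 and 38.9 CPM in shCdGAP, the helicase gene Mcm9 at 9.70, 9.53 and 11.8 CPM in shCTL and 7.46, 11.5 and 12.3 CPM in shCdGAP and the histone variant gene H2afy2 at 12.3, 12.9 and 12.3 CPM in shCTL and 11.8, 12.7 and 13.4 CPM in shCdGAP.

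The largest falls were far beyond the shift of the block, and the level limit of the rule bears on them. Nav3, Btbd11, Anks1b, Pbld2 and Nr1h4 averaged under 10 CPM in shCdGAP. They reached the limit of 10 CPM over the 6 libraries only through their shCTL levels. Nav3, a neuron navigator gene that acts on microtubules, went from 29.6 ± 2.03 to 1.25 ± 0.958 CPM (SD, n = 3). Btbd11 went from 28.2 ± 3.50 to 2.83 ± 0.449 CPM and Anks1b, which encodes a scaffold protein of synapses, from 43.7 ± 1.25 to 6.35 ± 1.69 CPM. Zfp365 fell from 101 ± 12.0 to 18.6 ± 4.82 CPM and Pbld2 from 19.9 ± 5.28 to 3.75 ± 1.24 CPM. Mdm2 was at 1089.6, 754 and 684 CPM in shCTL and 182, 193 and 197 CPM in shCdGAP, so the lowest shCTL library was 3.48 times the highest shCdGAP library. Nt5dc3 went from 133 ± 3.71 to 34.7 ± 7.07 CPM. Nr1h4, which encodes the bile acid receptor FXR, was at 37.0, 33.7 and 33.7 CPM in shCTL and 9.52, 9.61 and 9.48 CPM in shCdGAP, with the 3 shCdGAP values nearly equal. Log2 fold changes of the 8 ran from −4.54 to −1.87, with edgeR adjusted p from 0.000233 to 0.00396, and all 8 were called in every fit with 1 library left out.

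Other members rose well above their neighbours within the lowered block. Among them, Col6a2 and Tle2 averaged under 10 CPM in shCTL (9.49 and 8.28 CPM) and reached the rule's limit only through shCdGAP. Tspan8, a tetraspanin of the cell surface, was at 32.7, 36.9 and 38.1 CPM in shCTL and 173, 185 and 197 CPM in shCdGAP, and its log2 fold change was 2.36 ± 0.11 (SE, edgeR adjusted p = 0.00016). Col6a1 and Col6a2, which lie next to each other and encode chains of collagen VI, rose from 36.8 ± 8.39 to 181 ± 41.4 CPM and from 9.49 ± 2.72 to 40.4 ± 7.79 CPM. Bicc1, an RNA-binding protein gene, rose from 215 ± 17.5 to 839 ± 176 CPM. The corepressor gene Tle2 was at 10.2, 7.64 and 7.03 CPM in shCTL and 47.8, 31.2 and 12.1 CPM in shCdGAP, with shCdGAP replicate 3 close to shCTL. The stress gene Gadd45b was at 14.2, 11.7 and 12.1 CPM in shCTL and 17.4, 49.5 and 47.7 CPM in shCdGAP, where replicate 1 was the one close to shCTL. Csrp2, a LIM domain protein gene, rose from 10.3 ± 1.06 to 30.8 ± 8.16 CPM and Rassf9 from 14.4 ± 1.26 to 37.6 ± 10.4 CPM. Calls of Tle2 were lost without any shCTL library or without shCdGAP replicate 2 (edgeR adjusted p up to 0.135). Calls of Gadd45b were lost without any library other than shCdGAP replicate 1 (up to 0.121) and with replicate number as a block (edgeR adjusted p = 0.0751).

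**Figure D3:**
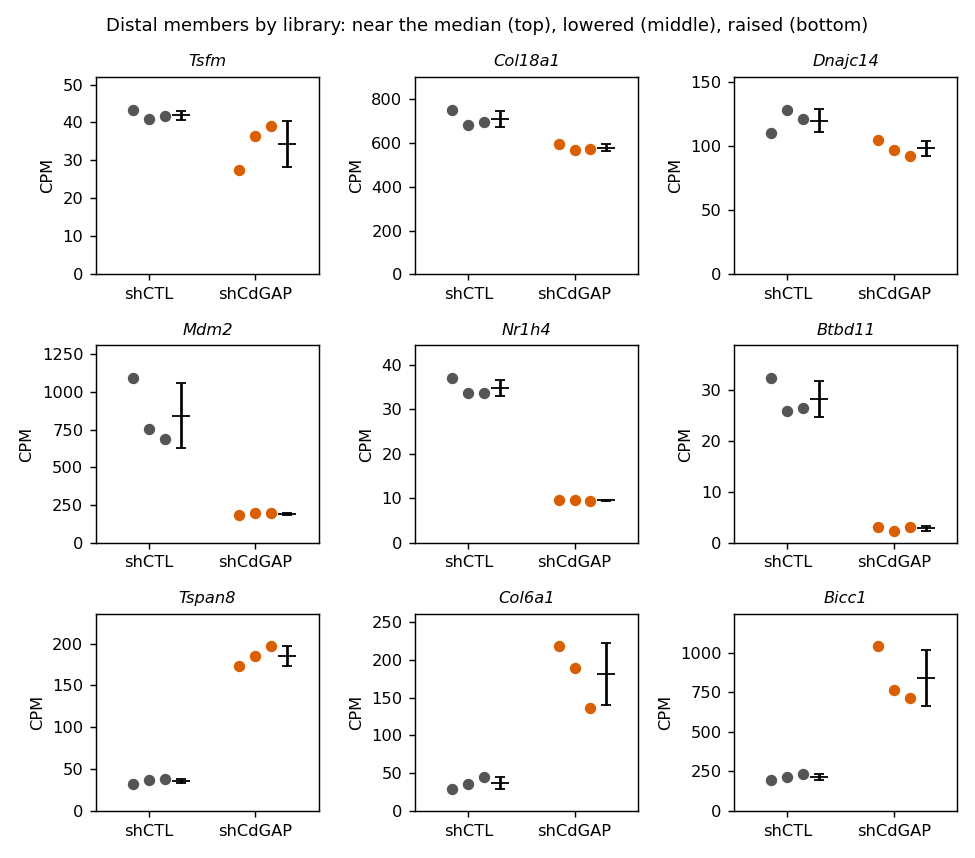
CPM of 9 distal members in each library (points, replicates 1 to 3 from left to right) with the mean and SD of each group (n = 3) beside them, on axes that start at 0. The top row holds the members nearest the block's median, the middle row has Mdm2, Nr1h4 and Btbd11 with no overlap and much lower shCdGAP values, and the bottom row has Tspan8, Col6a1 and Bicc1 with the opposite direction.

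The 94 members placed in 6 lists by role had a median of −0.29, the same as the block, with 18 called lower (19.1%) and 4 higher (4.26%). Each list's counts are to be read against the 11.4% of all tested genes called lower, the 10.4% called higher and the 22.4% with groups that did not overlap and lower values, and against 22.2%, 3.86% and 49.5% of the block. Of 16 members that act in cell division, genome upkeep or p53 control, 4 fell (25%), 1 rose and 11 were not called (median −0.37, against −0.29 for all members and 0.01 for all genes tested). The members that fell besides Mdm2 were Hmga2 (576 ± 176 to 192 ± 50.6 CPM), the kinetochore gene Zwint (329 ± 44.2 to 162 ± 10.9 CPM) and Apaf1, which builds the apoptosome (75.5 ± 5.14 to 39.2 ± 4.04 CPM). The member that rose was Gadd45b. Cdk4 was at 445, 417 and 432 CPM in shCTL and 505, 395 and 392 CPM in shCdGAP, so of the trio with Mdm2 and Hmga2 it was the one with overlapping groups (log2 fold change −0.0033). Cdk2 was at 50.8, 57.8 and 58.1 CPM in shCTL and 18.6, 43.9 and 45.7 CPM in shCdGAP. In 4 other members of the list, shCdGAP replicate 1 was far below its replicates, and shCTL replicate 1 was the lowest of its group. Cdk1 was at 232, 364 and 359.8 CPM in shCTL and 39.8, 395 and 366 CPM in shCdGAP, the primase gene Prim1 at 63.0, 112 and 116 CPM in shCTL and 10.99, 107 and 106 CPM in shCdGAP. Timeless, a replication fork gene, was at 35.3, 57.89 and 59.7 CPM in shCTL and 10.9, 62.5 and 68.9 CPM in shCdGAP, and E2f7, a repressor of the E2F family, at 19.3, 25.03 and 27.8 CPM in shCTL and 1.34, 21.2 and 23.9 CPM in shCdGAP. Without that library the log2 fold changes of Cdk1, Prim1, Timeless and E2f7 were 0.27, 0.15, 0.38 and −0.083, the list had 8 members called lower and 1 higher (21.9% and 19.9% of all tested genes), and Cdk2 passed edgeR (adjusted p = 0.0398).

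Of 15 members of growth and inflammatory signalling, 3 fell (20%, against 22.2% of the block) and 0 rose (median −0.31). Dusp6, the phosphatase that switches off ERK, was at 397, 281 and 247 CPM in shCTL and 188, 103 and 81.2 CPM in shCdGAP. Map2k2, which encodes the ERK kinase MEK, was at 173, 162 and 177 CPM in shCTL and 128, 133 and 130.4 CPM in shCdGAP. Stat6, a transcription factor of interleukin signalling, was at 229, 215 and 215 CPM in shCTL and 176, 152 and 149 CPM in shCdGAP. All 3 shCdGAP libraries were lower than all shCTL libraries in each of these genes. Calls of all 3 were lost without any library other than shCdGAP replicate 1 (edgeR adjusted p up to 0.128, 0.132 and 0.0975), and that of Map2k2 also with replicate number as a block (0.0555) or with no filter on low counts (0.0682). Not called were Kitl, the ligand of the receptor Kit (388 ± 38.8 and 313 ± 88.1 CPM), the cytokine feedback gene Socs2 (35.4 ± 1.42 and 22.2 ± 6.34 CPM) and the interferon factor gene Stat2 (33.1 ± 4.37 and 63.2 ± 32.1 CPM, with shCdGAP replicate 1 highest). Without shCdGAP replicate 1, 10 members of the list were called lower (21.9% of all tested genes were in that fit), among them Kitl (edgeR adjusted p = 0.0104) and Socs2 (0.00134). Stat2 passed without shCdGAP replicate 3 (edgeR adjusted p = 0.037).

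Of 13 members of mitochondria and metabolism, 5 fell (38.5%, against 22.2% of the block and 11.4% of all tested genes) and 0 rose (median −0.37). Groups did not overlap in 10 of the 13 (76.9%, against 49.5% of the block and 22.4% of all tested genes), all lower in shCdGAP. Cs, which encodes citrate synthase, was at 718, 673 and 706 CPM in shCTL and 499.7, 498 and 527 CPM in shCdGAP. Tfam, which packages and transcribes mitochondrial DNA, was at 89.9, 95.04 and 93.0 CPM in shCTL and 45.7, 57.3 and 67.2 CPM in shCdGAP. Shmt2, an enzyme of mitochondrial serine and folate metabolism, was at 379, 248 and 278 CPM in shCTL and 114, 164 and 199 CPM in shCdGAP. Subunit genes of the ATP synthase (Atp5d, 258 ± 24.4 to 189 ± 16.1 CPM) and of complex III (Uqcr11, 111 ± 1.15 to 85.6 ± 7.59 CPM) fell as well. Atp5b, the catalytic subunit of the ATP synthase, was not called (2267 ± 70.0 and 1777 ± 239 CPM), nor was the glycolytic gene Pfkl (186 ± 20.5 and 233 ± 87.7 CPM), which had the highest log2 fold change of the list (0.33, and −0.014 without shCdGAP replicate 1). None of the 5 calls was made in every fit with 1 library left out. Cs, Tfam and Shmt2 lost theirs without any shCTL library or without shCdGAP replicate 2 (edgeR adjusted p up to 0.0806, 0.0893 and 0.147). Atp5d and Uqcr11 lost theirs without any library other than shCdGAP replicate 1 (up to 0.13 and 0.174). With replicate number as a block, Shmt2 (0.0888) and Uqcr11 (0.0663) were not called by edgeR at these adjusted p-values. Uqcr11 was also lost with RLE scaling (edgeR adjusted p = 0.0531) and with no filter on low counts (0.118). In the fit that lacks shCdGAP replicate 1, 9 of the 13 were called lower, against 21.9% of all tested genes.

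Members that make the translation machinery, chaperones and RNA polymerases had 0 of 15 called and a median of −0.16. At an unadjusted edgeR p under 0.05, the count was 1 of 15, and DESeq2 called 1. Per kilobase of exon, 4 of the 5 most abundant members belong here. Eef2, the elongation factor that moves the ribosome, was at 4974, 3621 and 3887 CPM in shCTL and 5829, 3277 and 3597 CPM in shCdGAP, and the ribosomal protein gene Rps15 at 816, 691 and 709 CPM in shCTL and 837, 604 and 701 CPM in shCdGAP. Rps26 and Rpl41 were at 523 ± 66.1 and 471 ± 53.2 CPM and 836 ± 72.8 and 703 ± 46.0 CPM, and ribosomal protein genes have near-identical pseudogene copies that could share reads. The fifth, Cd63, a tetraspanin of endosomes, was at 477, 524 and 520.1 CPM in shCTL and 716, 406 and 383 CPM in shCdGAP, and without shCdGAP replicate 1 it was lower (log2 fold change −0.35, edgeR adjusted p = 0.0121). The chaperone gene Hsp90b1 (1266 ± 61.3 and 925 ± 334 CPM), the growth regulator gene Pa2g4 (620.3 ± 51.3 and 387 ± 188 CPM) and the chaperonin gene Cct2 (949 ± 42.8 and 843 ± 62.4 CPM) were not called. When shCdGAP replicate 1 was left out, the log2 fold change went from −0.45 to −0.17 for Hsp90b1 and from −0.68 to −0.33 for Pa2g4.

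Adhesion, cytoskeleton and matrix members were the most divided, with 3 of 12 fallen (25%), 3 risen (25%) and a median of −0.07. Those that rose were Tspan8, Col6a1 and Col6a2. Nav3, the membrane anchor gene Ank3 (100.1 ± 15.8 to 36.8 ± 5.31 CPM) and Ppp1r12a, the targeting subunit of myosin phosphatase (119 ± 3.29 to 85.1 ± 4.65 CPM), fell. The call of Ppp1r12a was lost without shCTL replicate 2 or 3 or without shCdGAP replicate 2 (edgeR adjusted p up to 0.0775). Lrp1, an endocytic receptor gene, was at 108, 106 and 97.9 CPM in shCTL and 399, 167 and 109.7 CPM in shCdGAP, with most of the difference in shCdGAP replicate 1. Its groups did not overlap, and it passed only without shCdGAP replicate 3 among fits with 1 library left out (edgeR adjusted p = 0.0434). The myosin light chain gene Myl6 was at 249 ± 26.9 and 269 ± 18.9 CPM. With shCdGAP replicate 1 left out, 6 of the 12 were called lower and 3 higher, against 21.9% and 19.9% of all tested genes.

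Of 23 chromatin, transcription and RNA processing members, 3 fell and 0 rose (median −0.29). The share that fell, 13.0%, was near the 11.4% of all tested genes. Nfyb, a subunit of the factor that binds CCAAT boxes, was at 67.3, 70.2 and 66.0 CPM in shCTL and 27.4, 39.2 and 35.2 CPM in shCdGAP. Elk3, an ETS factor gene, was at 243, 183 and 195 CPM in shCTL and 141, 120.0 and 123 CPM in shCdGAP, and Nab2, a corepressor of EGR factors, at 33.9, 36.3 and 30.1 CPM in shCTL and 12.4, 18.5 and 12.0 CPM in shCdGAP. The call of Elk3 was lost without shCTL replicate 3 or without shCdGAP replicate 2 or 3 (edgeR adjusted p up to 0.0731). Hnrnph3, a splicing factor gene near the boundary, was at 20.6, 16.6 and 18.5 CPM in shCTL and 23.8, 27.9 and 25.7 CPM in shCdGAP, higher in all 3 shCdGAP libraries and not called (edgeR adjusted p = 0.055), though it was without shCdGAP replicate 1 (0.00929). The splicing regulator gene Ptbp1 was at 614 ± 35.3 and 579 ± 36.8 CPM. Leaving out shCdGAP replicate 1, the fit called 13 of the 23 lower and 1 higher, against 21.9% and 19.9% of all tested genes.

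**Figure D4:**
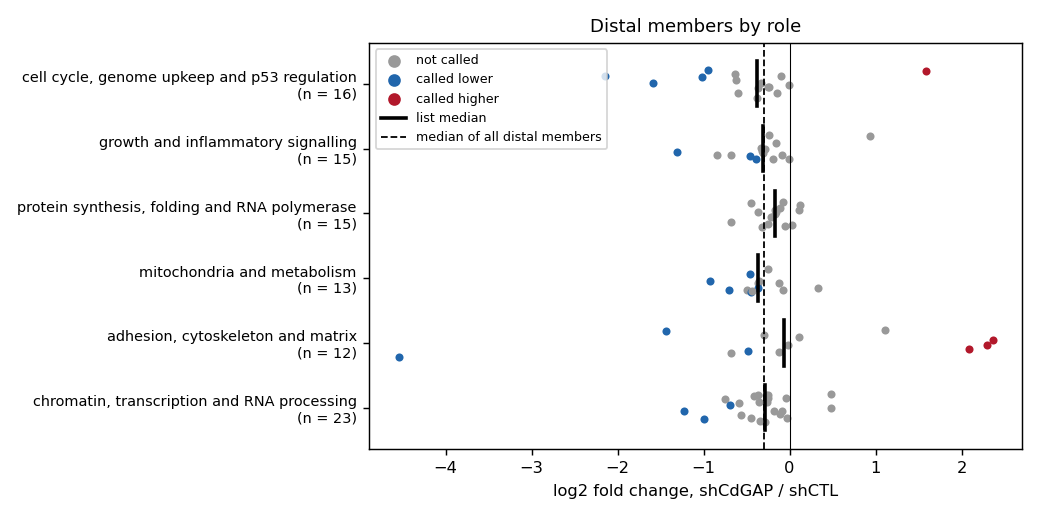
Log2 fold change (shCdGAP over shCTL, x axis) of the 94 distal members in 6 role lists (rows), coloured by edgeR call, with list medians as bars and the median of all members (−0.29) as a dashed line. The other 5 list medians lie between −0.37 and −0.16, and the adhesion, cytoskeleton and matrix list is centred at −0.07 with members out to −4.54 and 2.36.

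Some listed genes were under the level limit and are not counted as members. They numbered 9 of 21 in adhesion, cytoskeleton and matrix, where Lum had 0 counts, and 6 of 21 in signalling, where the ErbB receptor gene Erbb3 had a mean of 8.29 CPM, and 1 of 24 in chromatin, transcription and RNA processing. The 1 listed name of 16 without a row in the translation list, Mars1, is a newer symbol of Mars.

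The distal block was not the only stretch of the genome with a displaced median. Over genes of at least 10 CPM, medians of whole chromosomes ran from −0.30 on chromosome 16 to 0.41 on chromosome 17. Chromosome 16, with 295 genes and 77.6% below 0, was as low as the distal block, and chromosome 10 as a whole had −0.22. Medians of chromosomes 2, 4 and 11 were also lowered, at −0.19, −0.15 and −0.11. Chromosomes 8, 19 and 13 had medians of 0.27, 0.29 and 0.33. In shCdGAP replicates 1 to 3 the chromosome 16 medians were −0.26, −0.29 and −0.27, and those of chromosome 17 were 0.37, 0.42 and 0.41. Chromosomes with medians between −0.1 and 0.1 numbered 10 of 20. No test set the distal block apart from these chromosomes.

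**Figure D5:**
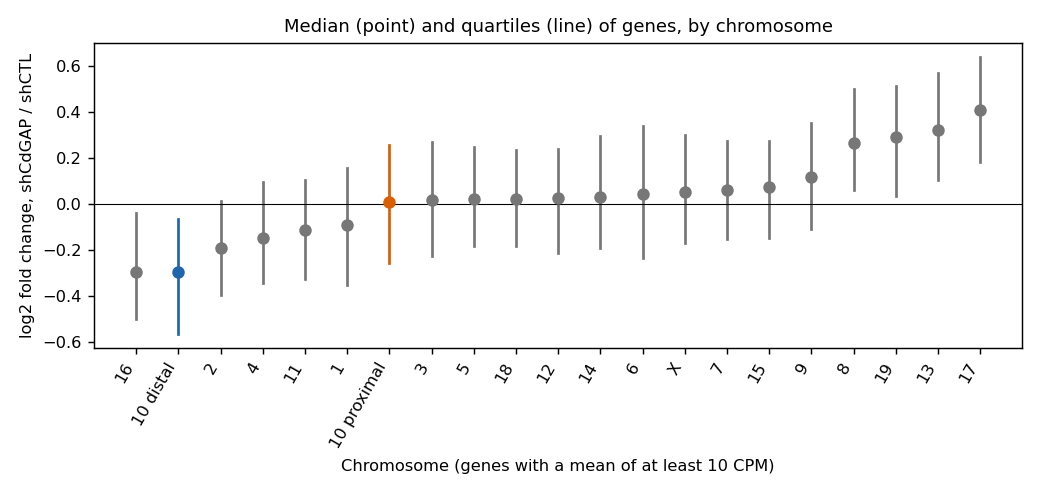
Median (point) and middle 50% (line) of log2 fold changes, shCdGAP over shCTL, for genes of at least 10 CPM on each autosome and X, with chromosome 10 divided at the boundary. The distal block (−0.29) lies beside chromosome 16 (−0.30) at the low end and proximal chromosome 10 (0.01) among the chromosomes near 0, while chromosome 17 (0.41) is highest.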

How the data were processed

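RNA was sequenced from 3 shCTL and 3 shCdGAP libraries of ErbB2-expressing mouse mammary tumour explant cells. The authors deposited unnormalized counts of read pairs per gene. Per the file headers these came from featureCounts 1.4.6 with the Ensembl release 77 annotation of GRCm38, reverse-stranded (setting 2), read pairs with both ends aligned and chimeric pairs left out. Per the submitters' processing notes, CASAVA 1.8, Trimmomatic 0.30 and TopHat2 2.0.14 were used, with Cuffdiff 2.2.1 and DESeq. Symbols came from GENCODE M21 for 40254 of 41214 genes.

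The rule's CPM is the count over the library total. Printed levels are CPM scaled by TMM. Genes kept by filterByExpr (minimum count 10, minimum total 15) were tested with edgeR 4.0.16 (R 4.3.3, quasi-likelihood F test, shCdGAP over shCTL, 6 libraries), with Benjamini-Hochberg adjustment over 13483 genes. All 311 members passed the filter. SE is the absolute log2 fold change over the square root of F. DESeq2 1.42.0 and other settings were run as alternatives. Same-numbered libraries of the 2 groups deviated together over tested genes (correlations 0.40, 0.35 and 0.30 for numbers 1, 2 and 3), all above 0.1, although number 3 did not correlate best with its own number, and no label gives a common batch or day. Calls in the text come from the fit without the replicate block. The block was run as an alternative, and its value is given where it ended a call. The edgeR fit was tested on simulated counts with changes in randomly drawn genes. No shift of a whole region was simulated, and the medians, windows and promoter counts were not tested in this way.

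Members, role lists, markers and tests were chosen with earlier results of these data known. Named genes were the role lists' members, the 8 largest falls and rises among called members, 3 genes on each side of the boundary, the 5 most abundant per kilobase, and the 3 nearest the median of either part. Not all of them are described. Genes at the CPM limit, in the window descriptions and among the markers are named beside these.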

Additional observations from a re-analysis of the deposited data

How the results depend on the processing

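The median of the distal members was below 0 in every alternative run, and the distal minus proximal difference too. The distal median was −0.35 with library totals in place of TMM, −0.34 with the replicate block and −0.23 over members not called, and it ran from −0.32 to −0.29 with a library left out. With library totals the median over all tested genes also moved, from 0.01 to −0.05, and the distal minus proximal difference stayed at −0.30. The distal minus proximal difference was −0.30, and it was −0.34 with the replicate block, −0.28 with the boundary 5 Mb lower, −0.22 over genes not called (chosen after seeing the data) and −0.35 to −0.29 with a library left out. The count called lower was 69 with the replicate block, of which 56 were among the 69 without it, so 13 calls were lost and 13 gained. It was 98 with DESeq2 and 92 with library totals, fits that called 14.5% and 12.9% of all tested genes lower, against 11.4% in the main fit. With a library left out it was 34 to 151, against 6.28% to 21.9% of all tested genes. The count called higher was 9 with the replicate block (3 lost, 0 gained). At a minimum of 1 CPM it was 19, over 388 distal genes in place of 311. With a library left out it was 6 to 17, against 3.95% to 19.9% of all tested genes. The cause of these moves was not tested. Over all 13483 genes, the block called 10.9% lower and 9.47% higher. No called member changed sign in any fit. Of 67 genes described, those that changed sign were not called. With library totals the log2 fold change was −0.030 for Ddx21, −0.035 for Eef2, −0.047 for Katna1, −0.046 for Mcm9 and −0.040 for H2afy2. With the replicate block it was −0.098 for Ddx21, −0.0090 for Eef2 and −0.012 for Mcm9, and with no filter −0.0019 for Katna1. With a library left out the log2 fold changes ran over 0 for Dna2 (−0.53 to 0.20), Ddx21 (−0.31 to 0.36), Eef2 (−0.26 to 0.19), Rps15 (−0.17 to 0.064), Cd63 (−0.35 to 0.15), Katna1 (−0.089 to 0.082), Mcm9 (−0.12 to 0.21), H2afy2 (−0.024 to 0.075), Cdk1 (−0.64 to 0.27), Cdk4 (−0.12 to 0.063), Pfkl (−0.014 to 0.50), Prim1 (−0.72 to 0.15) and Timeless (−0.47 to 0.38). The replicate block ended the calls of Gadd45b, Map2k2, Shmt2 and Uqcr11 among the genes described, at the adjusted p-values given with them.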
